A study of Homo sapiens with 15 samples.

Results

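The genes described here are 10 genes typical of immune, endothelial, epithelial or hair tissue whose transcripts were more abundant in transfected than in untransfected HepG2 cells. They are SLAMF9, CD68, TPSAB1 and TNFRSF1B of immune cells, TIE1 of endothelium, KRT17 and KRTAP3-1 of epidermis and hair, and TFF1, PAEP and WNT7B, which code for secreted proteins of epithelia. They were taken by symbol from a count matrix of 41412 rows, and all 10 were among the 18380 genes with enough counts to be tested. They were chosen by their higher counts in transfected than in untransfected cells, so their values in that comparison are given as a description, with no test. Differences among the transfected groups were not used in the choice and are tested.

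HepG2 is an established human hepatocellular carcinoma line, here of wild-type genotype. Of 5 groups of 3 biological replicates, 4 received 1 µg of mRNA for the fluorescent protein eGFP, carried by the lipid nanoparticle reagent NanoLNP. The mRNA was non-cloaked, weak-cloaked (0.1 M of a reagent named CR-3 for 0.5 h at 25 °C), medium-cloaked (0.5 M, 1 h, 30 °C) or strong-cloaked (1 M, 2 h, 37 °C), and the remaining group was untransfected. All cells were lysed at 48 h, and the study set out to measure what cloaking does to gene expression. No group received particles alone, so effects of the particle and of the mRNA cannot be told apart.

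Some of these genes are landmarks of their tissues. CD68 is a glycoprotein of late endosomes and lysosomes that pathologists use to stain macrophages, and TPSAB1 codes for a tryptase stored in mast cell granules. TIE1 is a receptor tyrosine kinase of the endothelium, the cell layer that lines blood vessels, and KRT17 is a keratin filament protein of hair follicles and stressed epidermis. None of the 10 is a usual product of hepatocytes, the cell type that HepG2 models.

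The libraries held between 57128519 and 78548789 counts. On the first principal component of all tested genes, which held 21.1% of the variance, untransfected libraries lay between -70.5 and -68.6 and 11 of the transfected libraries between -7.81 and 44.1. Weak-cloaked replicate 1 lay at -51.6, apart from its group and near the untransfected libraries. The hepatic identity of the cells was clear in every library. ALB, the albumin gene, had 4494 to 6915 CPM (counts scaled to a common library size with TMM factors) in transfected cells and 5395 to 6439 CPM in untransfected cells, and AFP, which codes for alpha-fetoprotein, had 204 to 285 CPM and 252 to 274 CPM. ALB and AFP are named as standard HepG2 products.

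The promoters of 6 of the 10 genes were in the RefSeq table for GRCh38.p14, each running from 250 bases before RefSeq's gene start to 50 bases after it. That start differs from the end of the GENCODE span given further on for several of these genes, and for KRTAP3-1, CD68 and SLAMF9 it lies inside the span. TPSAB1, KRT17, TFF1 and WNT7B were not matched. The 3 sequences that follow are shown because they share a motif found in few promoters. Capitals mark TGANTCA, the core site of the AP-1 (FOS and JUN) factors. SLAMF9 is on the minus strand at chr1:159954188-159954487, CD68 on the plus strand at chr17:7579388-7579687 and PAEP on the plus strand at chr9:135561506-135561805.
SLAMF9: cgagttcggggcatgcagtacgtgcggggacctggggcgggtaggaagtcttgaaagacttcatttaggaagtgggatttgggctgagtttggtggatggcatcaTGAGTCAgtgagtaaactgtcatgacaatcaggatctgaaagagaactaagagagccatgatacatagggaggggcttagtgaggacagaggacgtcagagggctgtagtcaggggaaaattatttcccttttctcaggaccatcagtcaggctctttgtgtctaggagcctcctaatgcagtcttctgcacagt
CD68: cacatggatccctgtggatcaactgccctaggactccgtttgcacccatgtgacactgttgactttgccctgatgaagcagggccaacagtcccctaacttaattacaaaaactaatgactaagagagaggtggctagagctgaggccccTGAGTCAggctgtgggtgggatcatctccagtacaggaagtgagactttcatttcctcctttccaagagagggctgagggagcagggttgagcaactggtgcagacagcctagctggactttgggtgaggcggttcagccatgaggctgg
PAEP: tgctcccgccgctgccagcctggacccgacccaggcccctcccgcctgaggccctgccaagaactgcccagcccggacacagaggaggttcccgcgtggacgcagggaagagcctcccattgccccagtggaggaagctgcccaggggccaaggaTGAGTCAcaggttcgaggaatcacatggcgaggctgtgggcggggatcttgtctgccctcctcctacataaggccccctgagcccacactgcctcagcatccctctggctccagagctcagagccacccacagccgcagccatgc

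Both strands were searched for 11 motifs. TGANTCA was found in 3 of the 6 promoters and in 7.71% of all 35116 promoters of the same length. The match read TGAGTCA in each of the 3, and it began 145 bases before the start of SLAMF9, 100 bases before that of CD68 and 95 bases before that of PAEP. The letters TATAAA were found in KRTAP3-1 alone among the 6 and in 11.5% of all promoters. GGGCGG, the GC box, lay in 3 of the 6 (SLAMF9, PAEP and TNFRSF1B) and in 45.0% of all. CCAAT lay in TIE1 alone, against 34.6% of all. The NF-kappaB motif lay in KRTAP3-1 alone (1.91% of all) and the STAT letters TTCNNNGAA in PAEP alone (7.66% of all). CpG dinucleotides were sparse: the ratio of observed to expected CpG was below 0.6 in 5 of the 6, the exception being TNFRSF1B, against 51.1% of all promoters. These matches are a description of letters, and no binding was measured.

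Every one of the 10 genes was already detected without transfection. Counts per gene ran from 21 to 6401 in transfected libraries and from 7 to 2420 in untransfected libraries. Over the mean of the 4 transfected groups minus untransfected cells, log2 fold changes of the 10 ran from 1.50 to 3.39 with a median of 2.06, while the median over all tested genes was -0.05. Across all genes, 1906 (10.4%) were called higher and 2336 (12.7%) lower in transfected cells by edgeR's quasi-likelihood test at an adjusted p below 0.05 (945 higher and 4358 lower when libraries were scaled by total counts, which moved the median of all genes to -0.28). In 9 of the 10 genes all 12 transfected libraries lay above all 3 untransfected ones, an arrangement found in 5.12% of tested genes. The exception was TFF1. In whole-culture RNA, more cells making a transcript and more transcript per cell cannot be told apart.

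**Figure D1:**
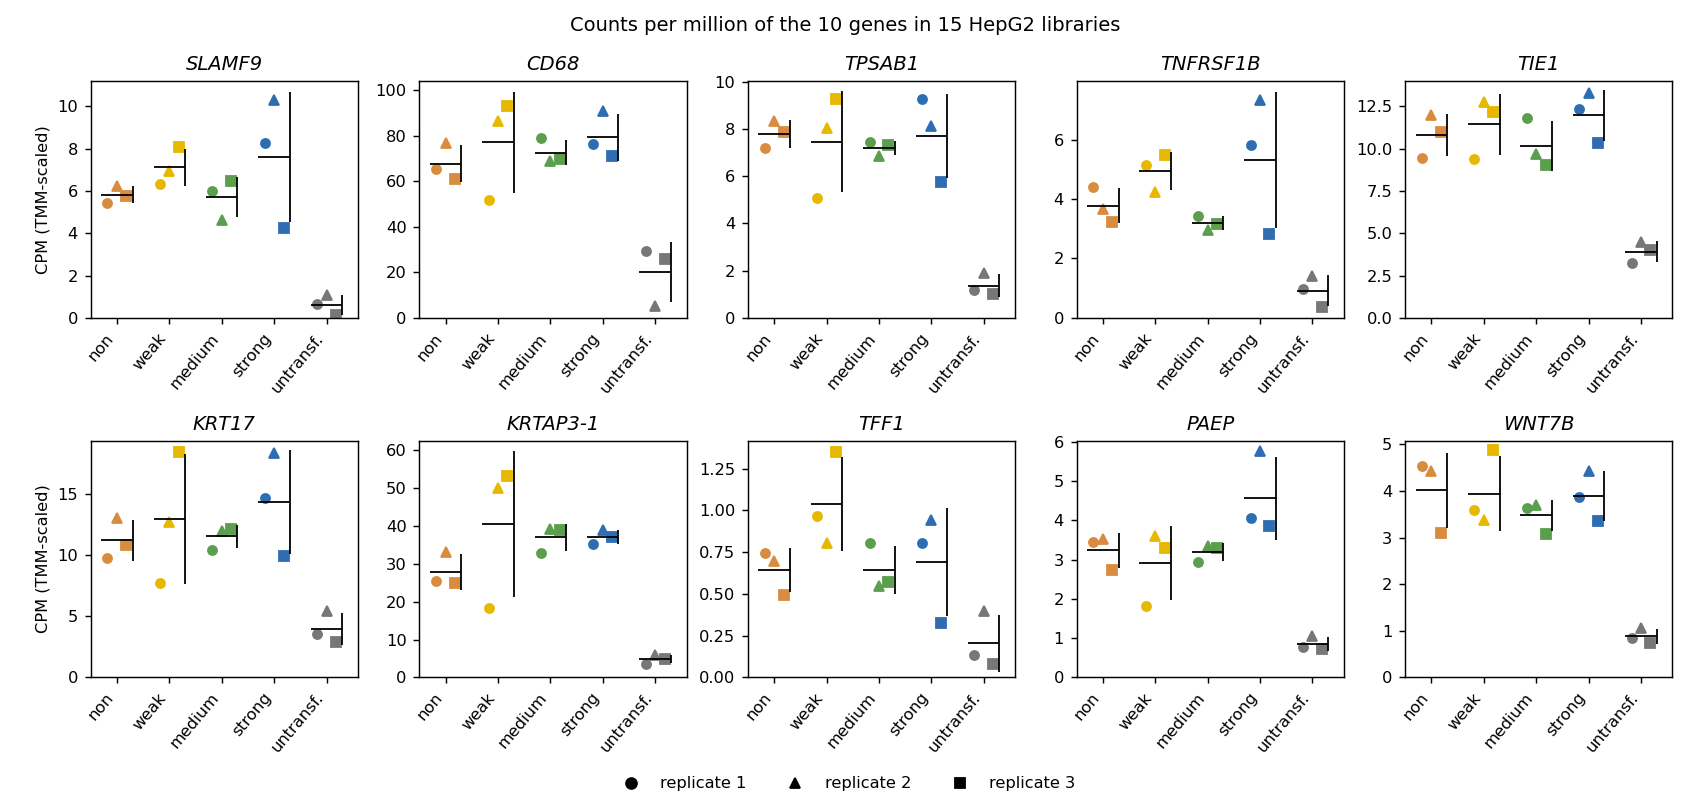
CPM, scaled by TMM factors, of each of the 10 genes in the 15 libraries, by group. Symbols are replicates, horizontal lines are group means and the vertical line beside each group is 1 SD either side of the mean (n = 3). The untransfected libraries lie lowest in every panel except that of TFF1, where strong-cloaked replicate 3 (0.326 CPM) lies below untransfected replicate 2 (0.400 CPM).

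SLAMF9 had the highest fold change of the 10. It codes for a receptor of the SLAM family, cell-surface immunoglobulin-like proteins of macrophages, dendritic cells and lymphocytes, and lies at chr1:159951492-159954254 on the minus strand with 4 exons (GRCh38, GENCODE release 29, as for every gene position here). It had 5.43, 6.25 and 5.77 CPM in non-cloaked, 6.32, 6.95 and 8.07 CPM in weak-cloaked, 6.02, 4.63 and 6.47 CPM in medium-cloaked and 8.25, 10.3 and 4.25 CPM in strong-cloaked cells, against 0.656, 1.08 and 0.128 CPM in untransfected cells. The lowest transfected library was thus 3.95 times the highest untransfected one. Its log2 fold change was 3.39 ± 0.49 (SE), or 10.5-fold. The untransfected libraries differed 8.41-fold among themselves, and the log2 fold change was 4.05 without untransfected replicate 2 and 2.90 without untransfected replicate 3.

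CD68 had 65.3, 76.6 and 60.9 CPM in non-cloaked, 51.6, 86.3 and 93.1 CPM in weak-cloaked, 78.8, 69.0 and 69.9 CPM in medium-cloaked and 76.2, 90.6 and 70.9 CPM in strong-cloaked cells, against 29.4, 5.25 and 26.0 CPM in untransfected cells. The groups did not overlap, but untransfected replicate 2 stood far below its fellows in this gene, and it was the library with the highest value of its group in the other 9. CD68 was higher by 1.87 ± 0.40 on the log2 scale, and by 1.42 without untransfected replicate 2. The gene lies at chr17:7579467-7582113 on the plus strand, 462 bases after EIF4A1, a translation initiation factor gene on the same strand. EIF4A1 was also low in untransfected replicate 2, at 404 CPM beside 1176 and 945 CPM in the other untransfected libraries and 1076 to 1343 CPM in transfected libraries. Of 100-base windows along the CD68 transcript, 92.4% also occur in annotated transcripts of AC016876.2, on the same strand, or AC016876.1, antisense. Neither was analysed here, and the sources used do not say how shared reads were counted, so the level of CD68 is uncertain in that respect.

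TPSAB1 had 5.09 to 9.26 CPM with a median of 7.65 in the 12 transfected libraries, against 1.17, 1.91 and 1.02 CPM in untransfected cells. The ranges were well apart, and the log2 fold change was 2.46 ± 0.25, or 5.51-fold. TPSAB1 lies at chr16:1240696-1242554 on the plus strand, between TPSB2 and TPSD1, which code for related tryptases. Both neighbours were called higher in transfected cells, TPSB2 by 2.20 ± 0.26 (adjusted p = 0.000427) and TPSD1 by 2.18 ± 0.60 (adjusted p = 0.02) on the log2 scale. TPSB2 had 6.08 to 12.8 CPM in transfected cells and at most 2.43 CPM in untransfected cells. These 3 genes are not independent readings, because 58.3% of the 100-base windows of TPSAB1 also occur in TPSB2 transcripts and 62.1% in those of TPSB2 or TPSD1. With untransfected replicate 1, 2 or 3 left out, TPSD1 was no longer called (highest adjusted p 0.0839).

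TNFRSF1B codes for the TNF receptor that lacks a death domain and recruits TRAF adapters, and it is most abundant on immune and endothelial cells. It had 2.81 to 7.32 CPM with a median of 3.95 in transfected cells, against 0.973, 1.40 and 0.372 CPM in untransfected cells. Strong-cloaked cells held both ends of the transfected range, replicate 2 the highest and replicate 3 the lowest. Its log2 fold change was 2.20 ± 0.37. The gene lies at chr1:12167003-12209228 on the plus strand.

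TIE1 varied least among transfected libraries of the 10. It had 9.01 to 13.3 CPM with a median of 11.4 in transfected cells, against 3.25, 4.48 and 4.02 CPM in untransfected cells. Its log2 fold change of 1.50 ± 0.17 was the smallest of the set, and its highest transfected library was only 1.47 times its lowest. It lies at chr1:43300993-43323108 on the plus strand with 23 exons. The neighbour C1orf210 had 13.2 to 26.0 CPM in transfected cells and 13.7 to 16.5 CPM in untransfected cells and was not called (adjusted p = 0.084).

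KRTAP3-1 codes for a keratin-associated protein, one of the proteins that cross-link keratin filaments in the cortex of the hair shaft. It had 25.4, 33.2 and 24.9 CPM in non-cloaked, 18.3, 49.9 and 53.2 CPM in weak-cloaked, 32.9, 39.3 and 38.9 CPM in medium-cloaked and 35.3, 38.9 and 37.1 CPM in strong-cloaked cells, against 3.65, 5.89 and 5.00 CPM in untransfected cells. Weak-cloaked replicate 1 was the lowest transfected library and the other weak-cloaked libraries were the highest, yet even the lowest was 3.11 times the highest untransfected one. KRTAP3-1 thus had a log2 fold change of 2.86 ± 0.29, or 7.28-fold. It lies at chr17:41008521-41019324 on the minus strand, within the keratin gene region that also holds KRT17 (chr17:41619441-41624842, minus strand). KRT17 had 7.78 to 18.4 CPM with a median of 12.1 in transfected cells, against 3.53, 5.42 and 2.90 CPM in untransfected cells, a log2 fold change of 1.66 ± 0.28. Its lowest transfected library, weak-cloaked replicate 1, was 1.43 times the highest untransfected one, the closest approach among the 9 genes without overlap.

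TFF1 codes for a small trefoil peptide that stomach mucous cells secrete. It rested on few reads, 21 to 93 counts in transfected libraries and 7 to 35 counts in untransfected libraries. It had 0.743, 0.698 and 0.495 CPM in non-cloaked, 0.964, 0.806 and 1.35 CPM in weak-cloaked, 0.808, 0.547 and 0.573 CPM in medium-cloaked and 0.808, 0.942 and 0.326 CPM in strong-cloaked cells, against 0.134, 0.400 and 0.0813 CPM in untransfected cells. The ranges overlapped through strong-cloaked replicate 3 and untransfected replicate 2. TFF1 had a log2 fold change of 1.84 ± 0.46, and of 2.76 without untransfected replicate 2. It lies at chr21:42362282-42366594 on the minus strand.

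PAEP codes for glycodelin, a lipocalin that the endometrium secretes, and lies at chr9:135561756-135566955 on the plus strand. It had 1.83 to 5.78 CPM with a median of 3.40 in transfected cells, against 0.766, 1.05 and 0.732 CPM in untransfected cells. Its log2 fold change was 2.01 ± 0.24, with no overlap of the ranges. Strong-cloaked cells had the highest mean, 4.56 ± 1.06 CPM, beside 3.24 ± 0.44 in non-cloaked, 2.92 ± 0.95 in weak-cloaked and 3.20 ± 0.23 in medium-cloaked cells, against 0.85 ± 0.18 CPM in untransfected cells (SD, n = 3 each).

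WNT7B codes for a secreted WNT ligand that acts in lung, kidney and brain vessel development. It had 3.08 to 4.87 CPM with a median of 3.67 in transfected cells, against 0.839, 1.06 and 0.744 CPM in untransfected cells. The log2 fold change was 2.11 ± 0.21, or 4.33-fold, and the lowest transfected library was 2.90 times the highest untransfected one. The gene lies at chr22:45920362-45977129 on the minus strand.

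Levels can be ranked between genes only per kilobase of transcript, here the longest in GENCODE release 29. In transfected cells KRTAP3-1 led with a mean of 54.3 ± 15.1 RPKM (CPM divided by transcript length in kilobases), followed by CD68 at 39.5 ± 6.48, KRT17 at 6.84 ± 1.79, SLAMF9 at 5.67 ± 1.44, TPSAB1 at 5.56 ± 0.918, PAEP at 3.51 ± 0.936, TIE1 at 2.86 ± 0.382, TFF1 at 1.37 ± 0.482, TNFRSF1B at 1.17 ± 0.376 and WNT7B at 0.978 ± 0.153 RPKM (SD, n = 12). Only CD68 and KRT17 were neighbours in this order whose libraries did not overlap. In untransfected cells CD68 led at 10.8 ± 6.96 RPKM, followed by KRTAP3-1 at 7.39 ± 1.72 and KRT17 at 2.15 ± 0.715 RPKM (SD, n = 3), and the other 7 lay between 0.225 and 1.01 RPKM. SLAMF9, next after KRT17 in transfected cells, had 0.536 ± 0.411 RPKM in untransfected cells, below TIE1, TPSAB1 and PAEP.

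Each of the 4 transfected groups was then set beside untransfected cells. All 4 comparisons share the same 3 untransfected libraries. The median log2 fold change of the 10 genes was 1.99 for non-cloaked, 2.24 for weak-cloaked, 1.88 for medium-cloaked and 2.28 for strong-cloaked cells. SLAMF9 had 3.23 ± 0.53, 3.52 ± 0.54, 3.20 ± 0.53 and 3.61 ± 0.54 in that order, and KRTAP3-1 had 2.52, 3.06, 2.93 and 2.94 (log2). Over all genes, 3.84%, 2.11%, 6.25% and 7.99% were called higher in the same comparisons. The 10 genes were chosen for higher counts in transfected cells, so their higher level in each of the 4 groups is a description only.

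**Figure D2:**
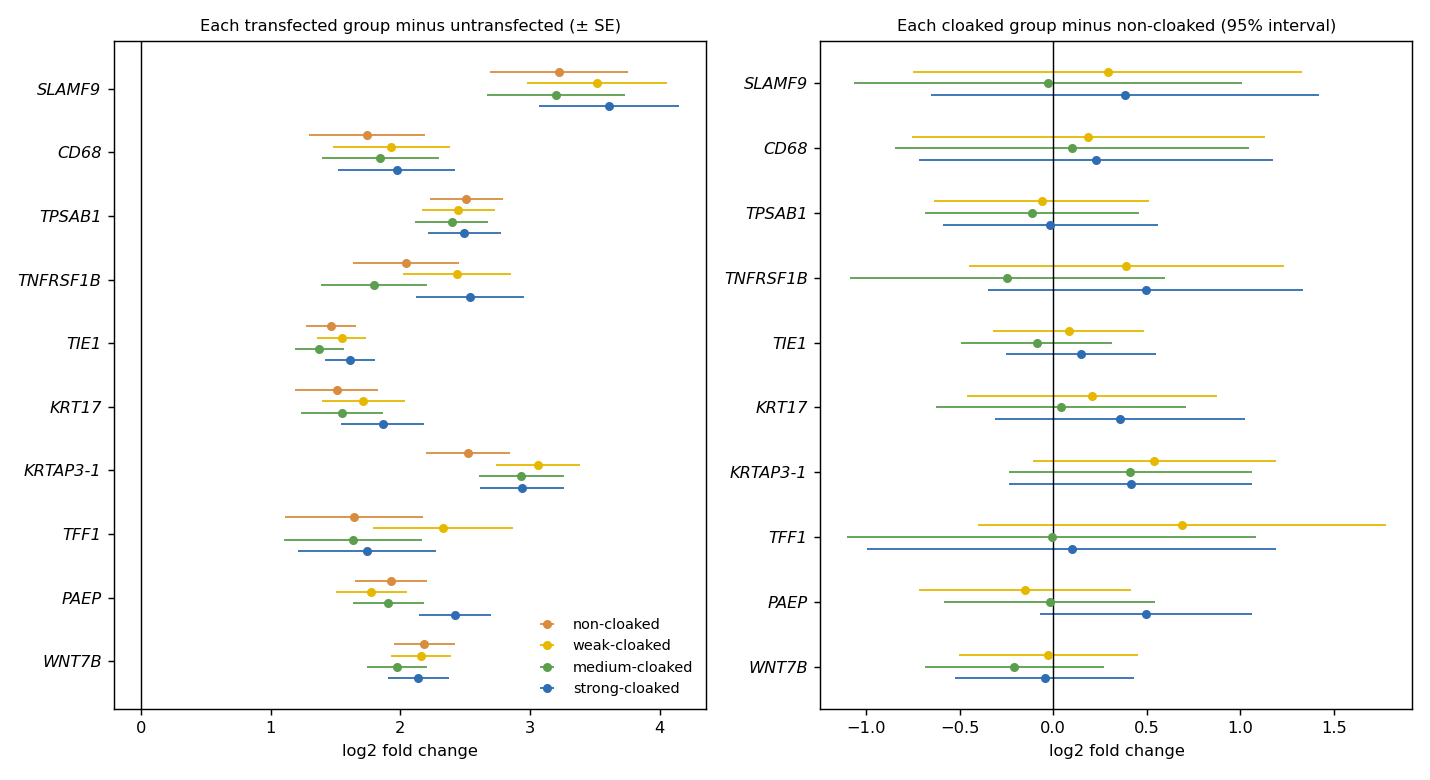
Log2 fold changes of the 10 genes. At left, each transfected group minus untransfected cells with its SE, all between 1.38 and 3.61. At right, each cloaked group minus non-cloaked cells with its 95% interval, every one of which includes 0.

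Whether cloaking altered these genes was tested among the transfected groups. None of the 10 was called in weak-, medium- or strong-cloaked minus non-cloaked cells, in the mean of the 3 cloaked groups minus non-cloaked cells, or in an overall test across the 4 transfected groups. That held for edgeR and for DESeq2, and with either tool 0 of the 10 had an unadjusted p below 0.05 in any of the 5 tests. Over all 18380 genes edgeR called 1 gene (0.00544%) in the weak-cloaked comparison and in the overall test, SPAG1, named after its values were seen, and 0 genes (0%) in the other 3. At an unadjusted p below 0.05, the weak-, medium- and strong-cloaked comparisons held 3.92%, 9.5% and 3.61% of all genes, the mean of the cloaked groups 6.7% and the overall test 4.1%.

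A p that misses the threshold does not show that levels were alike. For weak-cloaked minus non-cloaked cells, the 95% intervals of the 10 log2 differences reached from -0.76 to 1.78. For medium-cloaked cells they reached from -1.10 to 1.08, for strong-cloaked cells from -0.99 to 1.42 and for the mean of the cloaked groups from -0.64 to 1.16. TIE1 and WNT7B were bounded most closely: TIE1 differed by 0.15 (-0.25 to 0.55) in strong-cloaked cells and WNT7B by -0.05 (-0.52 to 0.43). TFF1 was bounded least, with 0.69 (-0.40 to 1.78) in weak-cloaked cells. PAEP had 0.49 (-0.07 to 1.06) in strong-cloaked cells, with an unadjusted p of 0.082 and an adjusted p of 1.0.

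Among the 10, KRTAP3-1 had the lowest unadjusted p in the weak-cloaked, medium-cloaked and mean cloaked comparisons, and PAEP in the strong-cloaked and overall ones. The mean of KRTAP3-1 was 40.5 ± 19.3 CPM in weak-cloaked, 37.0 ± 3.61 CPM in medium-cloaked and 37.1 ± 1.79 CPM in strong-cloaked cells, against 27.8 ± 4.65 CPM in non-cloaked cells (SD, n = 3 each). The log2 difference was 0.54 (-0.11 to 1.19) for weak-cloaked cells, with an unadjusted p of 0.0967 and an adjusted p of 0.973 in edgeR's quasi-likelihood test. Without weak-cloaked replicate 1 it was 0.89 ± 0.18, with an unadjusted p of 0.000386 and an adjusted p of 0.412. For the mean of the 3 cloaked groups the log2 difference was 0.46, with an adjusted p of 0.775, and 0.57 ± 0.14 without that library, with an unadjusted p of 0.00164 and an adjusted p of 0.28. KRTAP3-1 was thus not called with or without the library.

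Within the 12 transfected libraries the 10 genes varied together. In strong-cloaked replicates 1 and 2 all 10 lay above their own mean, and in weak-cloaked replicates 2 and 3 it was 9. In non-cloaked replicate 3 and medium-cloaked replicate 2 only 1 of the 10 lay above its mean, and in weak-cloaked replicate 1 and strong-cloaked replicate 3 only 2. Replicates of the same group therefore lay on both sides: in the strong-cloaked group the median deviation was 0.23 in replicate 1, 0.36 in replicate 2 and -0.23 in replicate 3 (log2). Over pairs of genes, Pearson's r of log2 CPM across the 12 libraries had a median of 0.537 and ran from -0.0471 to 0.875, with 44 of 45 pairs above 0. Across all 15 libraries it had a median of 0.916 (0.538 to 0.977), which the gap to the untransfected libraries carries. These are descriptions, and the points share library preparation and scaling. The same values were not worked out for other sets of genes, so they do not set the 10 apart.

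**Figure D3:**
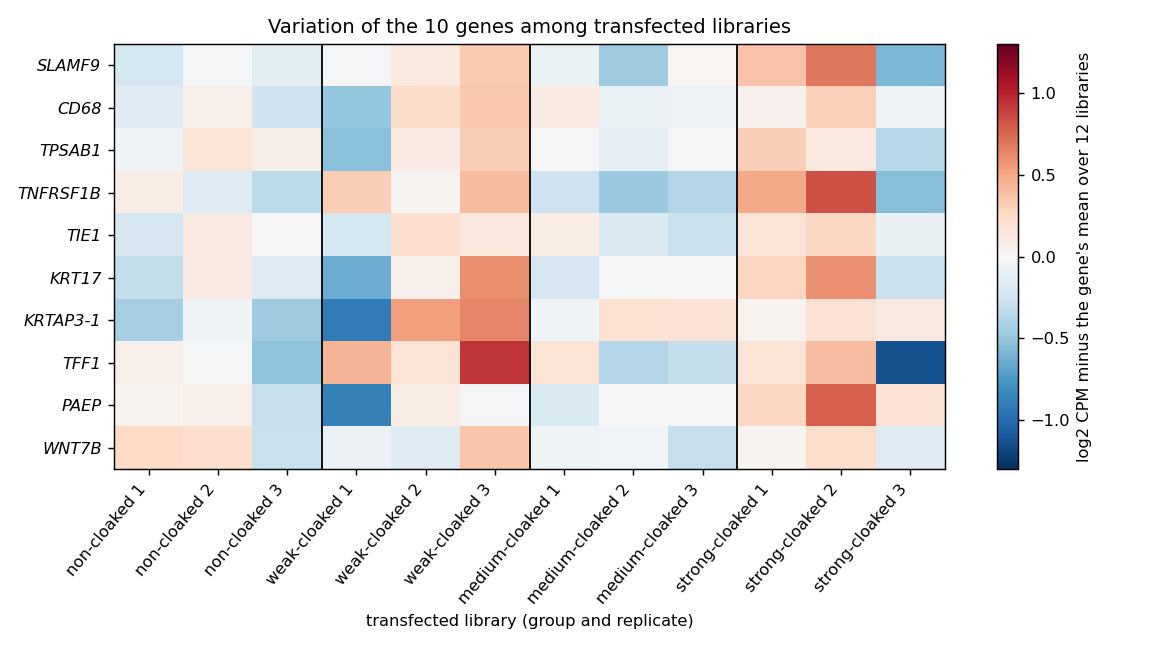
Log2 CPM of each of the 10 genes in each transfected library minus that gene's mean over the 12 transfected libraries, as colour (red above the mean, blue below). Vertical lines part the 4 groups. Strong-cloaked replicate 2 is red in every row (0.13 to 0.83), while weak-cloaked replicate 1 and strong-cloaked replicate 3 are mostly blue.

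Weak-cloaked replicate 1, which lay near the untransfected libraries over the whole transcriptome, is described here for the 10 genes, which were chosen with its values included. It exceeded every untransfected library in all 10, and it was the lowest of the 12 transfected libraries in 5 (CD68, TPSAB1, KRT17, KRTAP3-1 and PAEP). On the log2 scale it had covered a median of 0.80 of the distance between the untransfected mean and the mean of the other transfected libraries, with 0.541 for PAEP at the low end and 1.23 for TFF1 at the high end. Neither these counts nor these shares were worked out over all tested genes, so they describe the 10 genes only. The median log2 fold change of the 10 was 2.06 with that library and 2.10 without it.

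Other genes followed the same course. Over the 15 libraries, the genes most like the mean profile of the 10 were L1CAM (r = 0.994), which codes for a neural cell adhesion molecule, LGALS1 (0.991), which codes for the sugar-binding protein galectin-1, TPSB2 (0.987), S100A14 (0.983), which codes for an S100 protein of epithelia, and CYTOR (0.977), a long non-coding RNA. L1CAM also held r = 0.947 over the 12 transfected libraries alone. It had 25.9 to 35.8 CPM in transfected cells and 10.4 to 15.2 CPM in untransfected cells. LGALS1 had 170 to 277 CPM in transfected cells and 59.8 to 77.8 CPM in untransfected cells.

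Each of the 10 also had its own closest match over 15 libraries. It was LASP1 for SLAMF9 (0.991), COPZ1 for CD68 (0.983), LGALS1 for TPSAB1 (0.989) and TIE1 (0.979), SLAMF9 for TNFRSF1B (0.977), QSOX1 for KRT17 (0.979), SDC4 for KRTAP3-1 (0.987), ZP1 for TFF1 (0.956), CDA for PAEP (0.976) and L1CAM for WNT7B (0.976). COPZ1, a subunit of the coat of transport vesicles, shared with CD68 the low value in untransfected replicate 2, its range being 263 to 376 CPM in transfected cells and 104 to 254 CPM in untransfected cells. SDC4, a heparan sulfate proteoglycan of the cell surface, held r = 0.939 with KRTAP3-1 over the 12 transfected libraries. All of these profiles share the same libraries, and the gap between transfected and untransfected cells sets most of each r.

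Relatives and marker genes of the same lineages showed how far the pattern reached. They numbered 359 rows apart from the 10, of which 104 had no count in any library and 171 were tested. Of the tested genes 32 (18.7%) were called higher and 15 (8.77%) lower in transfected cells, where all tested genes gave 10.4% and 12.7%. With total-count scaling 24 of the 171 were called higher and 25 lower. Over all tested genes that scaling gave 945 higher and 4358 lower and a median log2 fold change of -0.28. Lower calls thus far outnumbered higher ones over all genes, but not among the related genes. With TMM scaling the median log2 fold change of the 171 was 0.30, beside -0.05 over all genes and 2.06 over the 10. Of the 47 called, 20 remained called under every alternative analysis, 17 of them higher, and 0 changed direction.

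**Figure D4:**
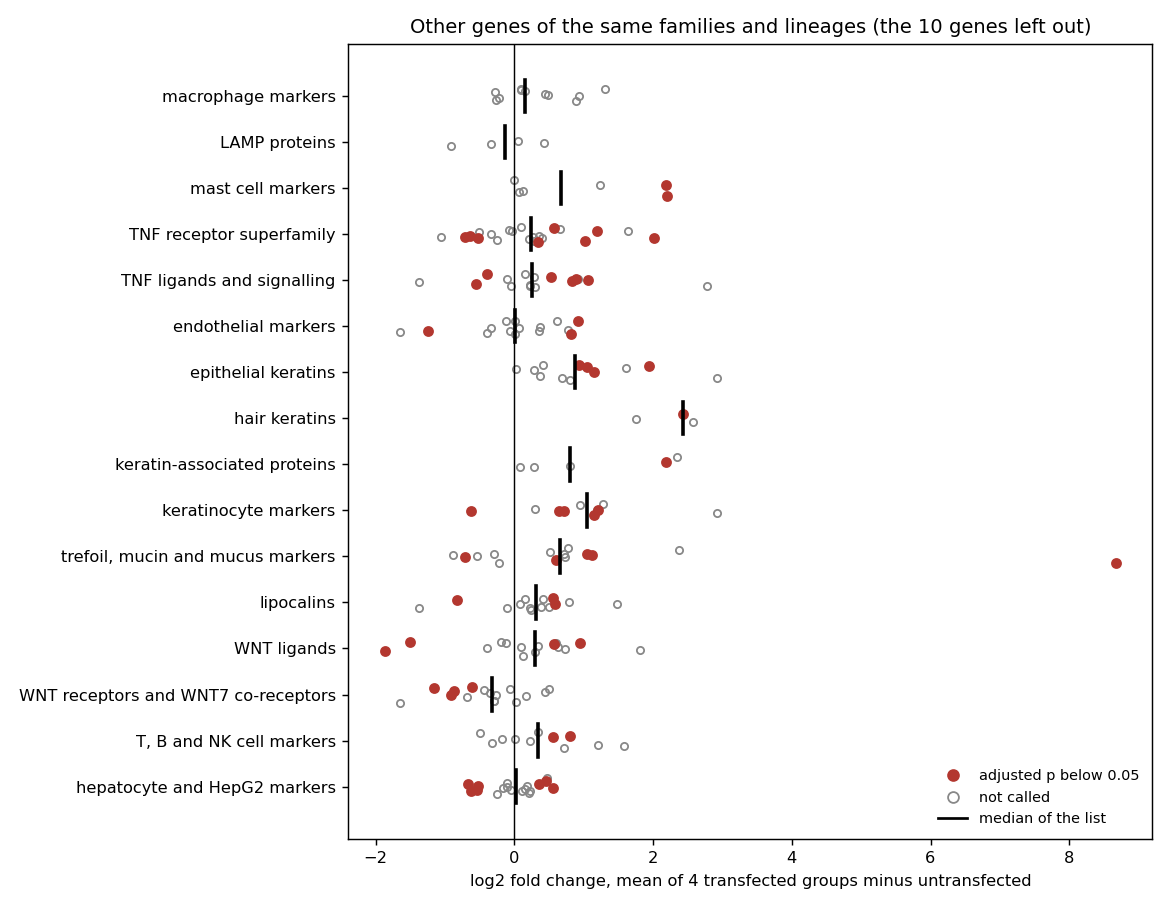
Log2 fold changes, mean of the 4 transfected groups minus untransfected cells, of tested genes from 16 lists of relatives and lineage markers, with the 10 genes left out. Filled points passed an adjusted p of 0.05 in edgeR's quasi-likelihood test, open points did not, and vertical bars are list medians. Keratin lists lie to the right of 0 (medians 0.87 and 2.44), and the point at 8.67 is MUC5B.

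Relatives of SLAMF9 were nearly undetected. Of the 10 other SLAM family genes in the matrix, 7 were at 0 in all 15 libraries (among them SLAMF1, CD48, CD84 and SLAMF8) and none had enough counts to be tested, so SLAMF9 had no tested relative. Of 23 other macrophage markers, 6 were at 0 in every library, including CD163, FCGR1A and C1QA, and PTPRC, which marks all leukocytes, had 8 counts in 1 library and 0 in the other 14. Among the 11 tested, 0 were called by edgeR and 0 by DESeq2, with 1 (lower) at an unadjusted p below 0.05 and 1 called lower under total-count scaling, with length and GC offsets plus the replicate block, and without weak-cloaked replicate 2. Their summed level was 875 to 1250 CPM in transfected cells and 1110 to 1537 CPM in untransfected cells, nearly all of it LYZ, the lysozyme gene, at 871 to 1243 CPM and 1106 to 1533 CPM. PTPRC and LYZ were named with their values already known. The other 4 genes of the LAMP family, to which CD68 is related, were tested. None was called by edgeR or DESeq2, and 0 had an unadjusted p below 0.05 in edgeR, but 1 was called higher with length and GC offsets and without strong-cloaked replicate 2.

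Of 15 other mast cell markers, 7 were at 0 in all libraries, including MS4A2 and FCER1A of the IgE receptor and the protease genes CMA1 and CTSG, and CPA3 had 3 counts in 1 library. TPSB2 and TPSD1 were the 2 called of 6 tested. Whether other cells had a part in the higher tryptase and SLAMF9 counts was not tested. Others were detected: GATA2, a transcription factor of mast and other cells named with its values known, had 2.60 to 20.5 CPM in transfected cells and 2.24 to 6.27 CPM in untransfected cells, and was not called (adjusted p = 0.179). The summed level of the list was 15.8 to 34.0 CPM in transfected cells and 6.91 to 11.9 CPM in untransfected cells. Of 11 tested T, B and NK cell markers, CD7 was higher by 0.55 ± 0.12 and CD79B by 0.80 ± 0.24 (log2), while MS4A1 was at 0 in all libraries. CD79B lost its call with total-count scaling (adjusted p = 0.0654 in edgeR's quasi-likelihood test) and without any 1 untransfected library. It also lost it with length and GC offsets, with or without the replicate block.

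Of 22 tested relatives of TNFRSF1B in the TNF receptor superfamily, 14 were not called, 5 were called higher and 3 lower (3 and 3 with total-count scaling), where all tested genes gave 10.4% higher and 12.7% lower. TNFRSF18 was higher by 2.02 ± 0.40, NGFR by 1.20 ± 0.34, TNFRSF12A by 1.01 ± 0.24, TNFRSF10D by 0.57 ± 0.14 and TNFRSF1A, the ubiquitous TNF receptor with a death domain, by 0.34 ± 0.09 (log2). TNFRSF12A had 63.9 to 130 CPM in transfected cells and 23.7 to 55.8 CPM in untransfected cells. FAS fell by 0.64, TNFRSF11A by 0.71 and TNFRSF19 by 0.52, and none of these 3 was called with offsets for transcript length and GC content. When the replicate block was added to those offsets, TNFRSF19 was called, while FAS and TNFRSF11A were not. TNFRSF12A and TNFRSF18 kept their calls under every alternative, and the other 6 lost theirs without at least 1 untransfected library.

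Among 16 tested TNF ligands and signalling genes, 4 were called higher and 2 lower (1 and 3 with total-count scaling). TNFAIP3, which codes for the inhibitor A20 and is itself a target of NF-kappaB, was higher by 1.06 ± 0.18 (adjusted p = 0.00209), with 50.9 to 102 CPM in transfected cells and 31.0 to 41.0 CPM in untransfected cells. MAP3K14, the NF-kappaB-inducing kinase, was higher by 0.83 ± 0.26, RELB by 0.52 ± 0.13 and LTB by 0.89 ± 0.28, and all 3 lost the call with total-count scaling. NFKB1 fell by 0.56 and TRAF3 by 0.39. Only TNFAIP3 and NFKB1 of these 6 were called under every alternative.

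Endothelial markers did not follow TIE1 as a group. Of 15 tested, 2 were called higher and 1 lower, and the list median of 0.01 turned to -0.21 with total-count scaling. EGFL7 was higher by 0.81 ± 0.14 and ESAM by 0.92 ± 0.21, while VWF, von Willebrand factor, fell by 1.24 (log2) and lost its call without untransfected replicate 2. SOX17 and EMCN were at 0 in every library, and TEK, the partner receptor of TIE1, reached at most 16 counts and had none in 8 of 15 libraries. The summed level was 115 to 161 CPM in transfected cells and 117 to 131 CPM in untransfected cells.

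Keratins related to KRT17 lay to the same side. All 12 tested epithelial keratins had log2 fold changes above 0, with a median of 0.87 (0.65 with total-count scaling), and 4 were called higher and 0 lower by edgeR, 5 and 0 by DESeq2, and 6 and 0 at an unadjusted p below 0.05. With total-count scaling the counts were again 4 and 0. KRT19, a keratin of simple and ductal epithelia, had 373 to 514 CPM in transfected cells and 159 to 227 CPM in untransfected cells, a log2 fold change of 1.15 ± 0.13 (adjusted p = 0.000289). KRT15 of basal epidermis was higher by 1.94 ± 0.23 (adjusted p = 0.000442), KRT10 by 0.93 ± 0.16 and KRT12 by 1.05 ± 0.29, the last of which lost its call without untransfected replicate 1 or 3. The 7 keratins KRT1, KRT2, KRT6B, KRT6C, KRT24, KRT76 and KRT77 were at 0 in every library.

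Hair proteins were scarce apart from KRTAP3-1. Of 93 other keratin-associated protein genes 56 were at 0 throughout, and of the 5 tested only KRTAP2-3 was called, higher by 2.19 ± 0.43 at 0.221 to 0.946 CPM in transfected cells and 0.0929 to 0.182 CPM in untransfected cells. The adjacent gene KRTAP1-5 had a log2 fold change of 2.34 ± 0.89 and was not called by edgeR (adjusted p = 0.0747), while DESeq2 called 2 of the 5, KRTAP1-5 among them. Of 3 tested hair keratins KRT37 was called, at 0.58 to 3.03 CPM in transfected cells and 0.231 to 0.395 CPM in untransfected cells, a log2 fold change of 2.44 ± 0.41.

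Of 10 tested keratinocyte markers 4 were called higher: S100A2 by 1.21 ± 0.30, LAMB3 by 1.14 ± 0.25, ITGB4 by 0.71 ± 0.13 and SFN by 0.65 ± 0.12 (log2). ITGB4 codes for an integrin of hemidesmosomes. S100A2 lost its call without untransfected replicate 3. DSC3, a desmosomal cadherin, fell by 0.63 and was called in only 9 of the 24 alternatives. TP63, the transcription factor that defines basal keratinocytes, was at 0 in every library, as were IVL and SPRR1A. The summed level was 181 to 269 CPM in transfected cells and 136 to 167 CPM in untransfected cells.

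Relatives of the secreted members were mixed. Of 14 tested mucins, trefoil factors and mucous cell markers, 4 were called higher and 1 lower (3 and 2 with total-count scaling). MUC13, a membrane mucin, was higher by 1.12 ± 0.14, with 15.1 to 22.2 CPM in transfected cells and 7.08 to 8.82 CPM in untransfected cells, AGR2 by 1.05 ± 0.26 and MUC3A by 0.59 ± 0.18, and PGC fell by 0.71, with -0.34 and no call (adjusted p = 0.382) without untransfected replicate 3. Only MUC13 of these was called under every alternative. TFF2, next to TFF1 on chromosome 21, had at most 17 counts and was not tested. Of 14 tested lipocalins PTGDS was higher by 0.59 ± 0.12 and RBP4 by 0.55 ± 0.13, while APOM fell by 0.83. PTGDS lost its call with length and GC offsets, and RBP4 without untransfected replicate 2.

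Relatives of WNT7B were called in both directions, and genes of WNT receptors and secretion only lower with all 15 libraries. Of 15 other tested WNT ligands, WNT9B was higher by 0.94 ± 0.20 and WNT10B by 0.57 ± 0.17, while WNT8B fell by 1.87 and WNT5A by 1.51 (log2). Without untransfected replicate 3 WNT5A had -0.82 and was not called (adjusted p = 0.239). Of 16 tested genes for WNT receptors, co-receptors and secretion (PORCN and WLS), 0 were called higher and 4 lower by edgeR, and 0 and 6 by DESeq2. The counts were 1 and 9 at an unadjusted p below 0.05 in edgeR and 0 and 9 with total-count scaling. Without weak-cloaked replicate 3 they were 1 and 4. FZD6 fell by 1.15, FZD4 by 0.91, FZD1 by 0.86 and ADGRA2, a co-receptor for WNT7 ligands, by 0.61. WNT9B and FZD4 alone of these 8 were called under every alternative. FZD4 had 24.6 to 52.0 CPM in transfected cells and 76.5 to 81.6 CPM in untransfected cells.

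Hepatocyte genes, set beside the 10 as the identity of the line, were called in both directions. Of 18 tested, 3 were higher and 4 lower, and with total-count scaling 1 and 7. HNF4A, a transcription factor of hepatocyte identity, fell by 0.66 and was called under every alternative. HNF4A had 121 to 199 CPM in transfected cells and 221 to 271 CPM in untransfected cells. FOXA2 fell by 0.54 and APOB by 0.53, while RBP4 was higher by 0.55 ± 0.13, SERPINA1 by 0.46 ± 0.12 and APOA1 by 0.36 ± 0.12 (log2). The 3 higher genes lost their calls without untransfected replicate 2, and APOA1 was called in only 8 of the 24 alternatives.

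Adjacent genes were compared to see whether the differences extended along the chromosome. Apart from the tryptases, 0 of 8 tested neighbours were called by edgeR, and 3 (all higher) had an unadjusted p below 0.05. Of KRTAP1-5 and OBP2A, the neighbours also held in the lists, DESeq2 called KRTAP1-5. IGSF9 beside SLAMF9 had 0.52 ± 0.28 (adjusted p = 0.205), MPDU1 after CD68 had 0.04 ± 0.12 (adjusted p = 0.839) and OBP2A beside PAEP had 0.08 ± 0.63 (adjusted p = 0.942). EIF4A1 had 0.55 ± 0.21 (adjusted p = 0.0815). KRT16, 3542 bases from KRT17, had at most 0.358 CPM in transfected cells and 0.0243 CPM in untransfected cells and was not tested.

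Transcript features were not used directly in the choice of the 10 genes. The fold change behind the choice does vary with them, since the median of the 10 was 2.06 without and 1.87 with length and GC offsets (log2). Other genes that rose were not compared in this respect, so the values describe the 10 beside all tested genes. Their longest transcripts had a median GC content of 57.9%, beside 49.4% over 18330 tested genes with an annotation, and all 10 lay above that median. Their median length was 1596 nucleotides beside 3181, with 3 of the 10 longer than the median, and TFF1 (551) and KRTAP3-1 (656) were among the shortest. With offsets for length and GC content fitted in each library, the log2 fold changes of the 10 ran from 1.40 to 3.19, and with total-count scaling from 1.27 to 3.15. Sequence shared with other genes touched CD68 and TPSAB1 as given above, KRT17 by 0.288% of windows with the pseudogene KRT17P3, and none of the other 7.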

How the data were processed

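RNA was measured in 15 libraries of HepG2 cells, poly(A)-selected and strand-specific per the labels' protocols. The authors deposited raw read counts per gene symbol in 1 matrix, and the submitters' processing notes name HISAT2, HTSeq, DESeq2 1.46.0, R 4.4.2 and the build GRCh38. The annotation release, strand setting and filter are not stated, so overlapping and antisense genes are uncertain. Of 41412 rows 14176 were 0 throughout.

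Groups came from the sample titles, which call the replicates biological. The fit used edgeR 4.0.16 under R 4.3.3: filterByExpr, TMM, and a robust quasi-likelihood fit of 5 group means to 15 libraries, with Benjamini-Hochberg adjustment over 18380 genes and calls at 0.05. Standard errors came from the fold change and its F statistic. CPM are counts scaled to TMM-corrected library size, and RPKM used the longest GENCODE release 29 transcript. Total counts of 57128519 to 78548789 leave counting error mainly in genes with few reads, such as TFF1. Replicates of a group differed far beyond sampling noise (chi-square per degree of freedom at least 78.8), so each counted once.

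Alternatives were RLE size factors, total-count scaling, DESeq2 1.42.0, no filter, 50 counts in 3 libraries, a replicate block, non-robust estimation, offsets for length and GC content (loess, span 0.5) with and without the block, and each library left out. The procedure was tested on simulated data. The 10 genes, the lists of relatives and markers and the naming rule were chosen with earlier results of these data known. Named were the 10, up to 4 genes called higher and 4 called lower per list, list genes at 0, neighbours, and the genes of most similar profile, and others are marked as singled out where they occur. Markers with few counts (CPA3, TEK, TFF2), and NGFR, were chosen with their values known.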

Additional observations from a re-analysis of the deposited data

How the results depend on the processing

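The 10 log2 fold changes against untransfected cells kept their sign under all 24 alternatives, which the choice of genes makes likely and which is no support for them. Of 240 such values 238 moved by less than the replicate SD. The exceptions were TIE1 at 1.27 with total-count scaling and TFF1 at 2.76 without untransfected replicate 2. The median of the 10 ran from 1.95 to 2.46 with 1 library left out. No cloaking comparison called any of the 10 under any alternative, and 8 of 1200 unadjusted p values were below 0.05, 7 of them for KRTAP3-1 and 6 without weak-cloaked replicate 1.

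Total-count scaling gave 945 genes higher and 4358 lower, and 25 related genes lower. Leaving out 1 library gave 933 to 2621 genes higher and 1228 to 3338 lower, and 22 to 40 related genes higher and 8 to 20 lower. The low ends came without an untransfected library (1134, 933 and 1286 higher, and 1369, 1228 and 1532 lower, without replicates 1, 2 and 3), where fewer samples remain, and the high ends (2621 and 3338) without weak-cloaked replicate 1. With the replicate block 1904 genes were higher and 2400 lower, the median of the 10 was 2.07 and no grade comparison called any of them. The numbers showed little pairing of libraries: 2 of 30 same-numbered correlations of deviations exceeded 0.1 (-0.0635 to 0.174). Correlations between different numbers ran from -0.137 to 0.113. For 2 of 15 libraries the mean correlation with same-numbered libraries exceeded every correlation with another number.

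Depth limits TFF1 most, with 7 counts in its lowest library. The 3 untransfected libraries serve every comparison with untransfected cells, and SLAMF9, TFF1 and CD68 depended most on which of them was kept.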

Other observations

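MUC5B, which codes for a gel-forming airway mucin, was the related gene with the largest fold change and behaved unlike the 10. It had 2.49, 27.0 and 0.0341 CPM in non-cloaked, 27.1, 4.88 and 26.8 CPM in weak-cloaked, 1.83, 28.4 and 1.69 CPM in medium-cloaked and 29.2, 0.0471 and 0.0931 CPM in strong-cloaked cells, against 0.0486, 0.0229 and 0.0116 CPM in untransfected cells. Each of the 4 transfected groups held at least 1 library at 26.8 CPM or more, and the lowest non-cloaked and strong-cloaked libraries lay within the untransfected range. Its log2 fold change of 8.67 ± 2.84 (adjusted p = 0.0442) was called in 13 of 24 alternatives.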
